A study of Mus musculus with 27 samples.

Results

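The histone cluster genes are the genes whose symbols start with Hist1h, Hist2h, Hist3h or Hist4. They encode a linker histone H1 or a core histone H2A, H2B, H3 or H4, apart from Hist1h2aj, Hist1h2al and Hist3h2bb-ps, which are annotated as pseudogenes. The rule took 70 of the 51906 gene symbols in the bulk RNA-seq table and 67 of the 32285 symbols in the single-cell matrices, where Hist1h2aj, Hist1h2al and Hist3h2bb-ps were not listed. Of the 70 members, 56 lie on mouse chromosome 13, 10 on chromosome 3, 3 on chromosome 11 and 1 on chromosome 6. By symbol they divide into 6 H1, 20 H2A, 19 H2B, 12 H3 and 13 H4 genes, with the pseudogenes included.

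The study asked how vitamin A signalling shapes the lineage choices of hair follicle stem cells (HFSCs), the epithelial stem cells of the hair follicle bulge. Bulk RNA-seq covered cultured HFSC lines from back skin at postnatal day 55, with 2 mice that were wild-type and 2 that carried Sox9-CreER, Rxra fl/fl and an R26-YFP reporter. The latter are called Rxra cKO here, for loss of the retinoid X receptor alpha in cells where the Sox9 driver was active. Each line was grown in 3-dimensional culture with fetal bovine serum (FBS), or in medium where B-27 supplement and other factors replaced serum and where all-trans-retinoic acid and the protein kinase C inhibitor Go6976 were added (atRA+PKCi). The 4 groups therefore hold 2 libraries each, with total estimated counts of 25150265 to 35879777 per library. Since the atRA+PKCi medium also lacks serum, the effects of serum, retinoic acid and the inhibitor cannot be told apart. Single-cell RNA-seq (10x, which primes on poly(A) and reads the 3′ end of transcripts) covered back skin at postnatal day 32, in full anagen (stage VI, the growth phase of the hair cycle), from 2 wild-type mice, sorted as CD45-CD31-CD140a-CD117- cells. It also covered cultured CD34+ HFSCs of these mice, pooled with hashtag antibodies that mark 7 culture conditions.

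Cluster histone genes are switched on when DNA is copied, so that new DNA can be packed into nucleosomes at once. Their main transcripts are not polyadenylated: they end shortly after the stop codon behind a conserved hairpin, the histone stem-loop, which is bound by the stem-loop binding protein Slbp and cut by U7 snRNP. Some members can also be read through to a downstream polyadenylation signal, which gives a longer, polyadenylated transcript that is known from cells that do not divide. In the anagen hair follicle the matrix cells at the base divide rapidly, whereas HFSCs of the bulge divide rarely.

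The 3′ ends of the annotated transcripts divided the members. Among 67 members with a complete coding transcript in GENCODE M21, on GRCm38 (mm10), 36 had a short tail of at most 100 bases from stop codon to transcript end, 9 a middle one and 22 a long one of over 300 bases. The short class is that of the processed, non-polyadenylated form, although 15 annotated models end less than 30 bases after the stop codon and may stop before the true end. A histone stem-loop (a stem of 6 bases, a loop of 4) was found in 46 members, 19 with short, 9 with middle and 18 with long tails. A polyadenylation hexamer, AATAAA, lay near the transcript end of 9 long, 5 middle and 0 short members. The stem-loops are shown because they are the element on which the short form rests, with the loop in capitals, 5′ to 3′, as DNA letters of the annotated transcripts:
26 members of H1, H2A, H2B and H3 (among them Hist1h1c, Hist1h1e, Hist1h2ap and Hist3h2a): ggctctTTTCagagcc
7 H4 members (among them Hist1h4c): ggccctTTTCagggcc
6 members of H1, H2B and H3: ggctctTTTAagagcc
2 H4 members (among them Hist1h4i): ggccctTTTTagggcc
2 H4 members: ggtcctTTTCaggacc
Hist1h4a: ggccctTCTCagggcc
Hist1h3g: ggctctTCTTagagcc
Hist2h2ac: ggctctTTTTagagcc

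The most frequent hairpin began 25 to 59 bases after the stop codon. No H4 gene carried it, and the H4 hairpins were found in no other family. Hist1h1b, the member with the most UMIs in skin, has an annotated model that ends at the stop codon, so its hairpin could not be read.

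Promoters were read for 61 members from RefSeq (GRCm38.p6), as the 250 bases before and 50 after the annotated start. An octamer, ATTTGCAT on either strand, the element of the Oct-1 transcription factor known from H2B promoters, was found in 7 of 17 H2A promoters (41.2%) and in 6 of 16 H2B promoters (37.5%). It was in 0 of the 6 H1, 10 H3 and 12 H4 promoters, and in 1.75% of all 27025 mouse promoters of that length. Some H2A and H2B genes lie head to head, such as Hist1h2ae (minus strand, start at 23571220) and Hist1h2bg (plus strand, start at 23571396). Their windows overlap, so the same motif can be counted in both families, and the 2 shares are not independent. The letters CCAAT, on either strand, were in all H1, H2A, H2B and H3 promoters and in 3 of 12 H4 promoters (25%), against 37.9% of all promoters. TATAAA, on either strand, was in 66.7% of H1, 64.7% of H2A, 50% of H2B, 40% of H3 and 66.7% of H4 promoters, against 14.2% of all. The promoters are given for the member with the most UMIs in skin, for the member with the highest level in bulk, and for a member with a long tail that was higher in atRA+PKCi in both genotypes. Capitals mark these 3 motifs:
Hist1h1b promoter, chr13:21780576-21780875, minus strand: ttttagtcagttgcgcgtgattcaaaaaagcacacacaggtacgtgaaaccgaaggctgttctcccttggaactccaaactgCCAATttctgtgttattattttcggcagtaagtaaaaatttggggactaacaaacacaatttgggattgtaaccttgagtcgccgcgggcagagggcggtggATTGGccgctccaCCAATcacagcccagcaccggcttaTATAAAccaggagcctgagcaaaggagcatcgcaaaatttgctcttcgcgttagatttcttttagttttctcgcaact
Hist1h1c promoter, chr13:23738557-23738856, plus strand: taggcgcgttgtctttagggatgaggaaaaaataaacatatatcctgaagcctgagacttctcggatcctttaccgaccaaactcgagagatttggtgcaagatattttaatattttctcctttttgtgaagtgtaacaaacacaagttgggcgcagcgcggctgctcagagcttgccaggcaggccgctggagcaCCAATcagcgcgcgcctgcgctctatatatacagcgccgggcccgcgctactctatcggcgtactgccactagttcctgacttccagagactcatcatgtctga
Hist3h2a promoter, chr11:58954435-58954734, plus strand: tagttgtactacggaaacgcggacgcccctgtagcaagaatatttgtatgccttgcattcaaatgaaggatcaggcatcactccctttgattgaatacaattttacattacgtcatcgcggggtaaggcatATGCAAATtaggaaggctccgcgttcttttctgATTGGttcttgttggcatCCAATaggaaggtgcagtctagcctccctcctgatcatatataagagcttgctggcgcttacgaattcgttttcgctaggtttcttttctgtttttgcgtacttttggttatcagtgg

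Of these, the Hist3h2a promoter holds the octamer (as its reverse complement) and CCAAT, the Hist1h1b promoter CCAAT and TATAAA, and the Hist1h1c promoter CCAAT alone. A match of letters is a description of the window and no evidence of binding.

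The labels were checked against marker genes before the histones were read. In the bulk cultures, on the scale of counts scaled to library size (CPM), the basal keratin Krt5 was at 8958 to 12330 and Krt14 at 5718 to 22350. Krt15, a bulge keratin, was at 4576 and 4430 CPM in the wild-type atRA+PKCi libraries, at 251 and 245 CPM in the Rxra cKO atRA+PKCi libraries and at 3.65 to 8.23 CPM in FBS. Cd34, which marks bulge HFSCs, was at 0.385 to 2.91 CPM and Lhx2 at no more than 0.0962 CPM, so these 2 markers were low or at 0 in all 8 libraries. Sox9, the transcription factor of HFSCs, was at 70.1 to 173 CPM, and Itga6, an integrin of basal cells, at 304 to 1444 CPM. Rxra itself was at 149 and 122 CPM in wild-type FBS, 97.2 and 95.7 in Rxra cKO FBS, 147 and 143 in wild-type atRA+PKCi, and 148 and 145 CPM in Rxra cKO atRA+PKCi. The libraries labelled Rxra cKO were thus lower in FBS (log2 fold change -0.49, edgeR quasi-likelihood test, adjusted p = 0.00264) and overlapped wild-type in atRA+PKCi (0.01, adjusted p = 0.927). The counts are per gene and not per exon, so they are no direct measure of the deletion, and "Rxra cKO" stands for the label throughout.

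In bulk, the histone cluster genes made up between 0.0167% and 0.0269% of all counts. Their summed level was 183 and 219 CPM in the wild-type FBS libraries, 168 and 164 CPM in wild-type atRA+PKCi, 170 and 196 CPM in Rxra cKO FBS, and 235 and 252 CPM in Rxra cKO atRA+PKCi. The last group lay above the other 6 libraries, with a mean of 243.7 ± 12.2 CPM (SD, n = 2) against 165.7 ± 2.64 for wild-type in the same medium. In bulk RNA from a culture, fewer cells of a type and less RNA per cell cannot be told apart.

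Only 14 of the 70 members had a mean of at least 1 CPM over the 8 libraries, and 47 had fewer than 100 counts in all. Hist2h3c1, an H3 gene that shares every 31-base word of its transcripts with other genes, was listed at 0 in every library. The 3 most abundant members, Hist1h1c, Hist1h2bc and Hist3h2a, carried 78.0% of the summed CPM. By family, H1 held 44.2%, H2B 32.5%, H2A 16.3%, H4 4.87% and H3 2.07% of it. By tail, the 22 members with long tails held 89.3%, and the 36 members with short tails held 4.88%, or 9.67 CPM in all. Per kilobase of the longest annotated transcript, Hist1h1c (51.6 CPM per kb) and Hist1h2bc (49.4) were the highest, followed by Hist2h2aa2 (13.6), Hist3h2a (8.02) and Hist1h4i (7.59). Whether the libraries were made by poly(A) selection is not given in the sources used here. The non-polyadenylated RNAs on a list of controls (led by Rn7sk, an RNA polymerase III transcript) summed to 5.04 and 45.3 CPM in the wild-type FBS libraries, 12.4 and 13.8 in wild-type atRA+PKCi, 8.31 and 12.5 in Rxra cKO FBS and 17.1 and 14.3 CPM in Rxra cKO atRA+PKCi. The 2 wild-type FBS libraries thus lay far apart in these RNAs, and their part in the histone values was not tested.

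**Figure D1:**
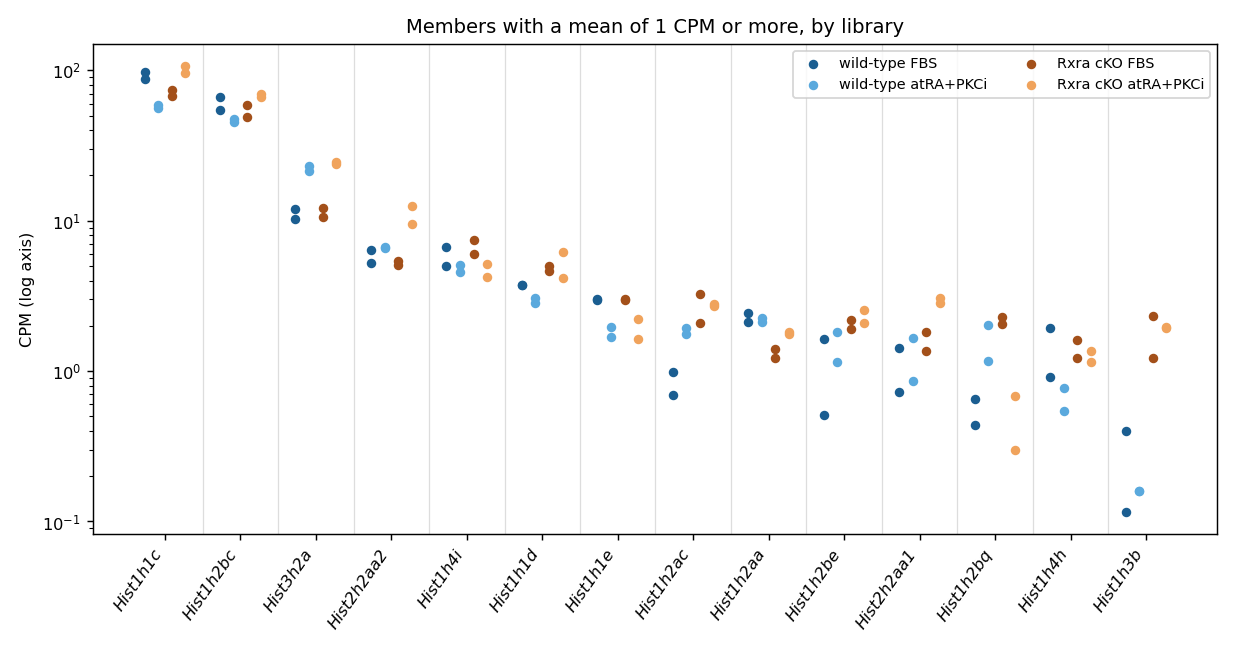
Levels of the 14 histone cluster genes with a mean of at least 1 CPM in the 8 bulk libraries, in CPM on a log axis, with each point a library and the colours standing for the 4 groups. Hist1h1c and Hist1h2bc lie at 45.3 to 106 CPM, Hist3h2a at 10.3 to 24.5 CPM and Hist2h2aa2 at 5.09 to 12.6 CPM. The others have lower means over the 8 libraries, though Hist1h4i, at 4.25 to 7.48 CPM, overlaps Hist2h2aa2.

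Whether the medium moves histone transcripts was tested within each genotype with the fit over all 15965 tested genes, of which 37 were members (13 short, 7 middle, 17 long). In wild-type cultures 7 members were higher in atRA+PKCi than in FBS and 5 were lower (edgeR, adjusted p under 0.05). Of all genes tested, 27.2% were higher and 26.6% lower, so the members' shares were below those of all genes in both directions. The median log2 fold change was -0.06 over the members and 0.03 over all genes.

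Among the H1 genes, Hist1h1c (ENSMUSG00000036181, chr13:23738808-23740367, plus strand, with a tail of 880 bases) encodes a linker histone known from dividing and non-dividing cells alike. It was at 87.2 and 97.9 CPM in the wild-type FBS libraries and at 58.8 and 56.2 CPM in those with atRA+PKCi. The groups did not overlap, and the gene fell by 0.69 on the log2 scale (SE 0.09, edgeR adjusted p = 0.000205). Hist1h1e, another linker histone, was at 2.99 and 2.98 CPM in FBS and 1.96 and 1.68 CPM in atRA+PKCi (log2 fold change -0.71, SE 0.23, edgeR adjusted p = 0.0271), and this call was lost without either wild-type FBS library or wild-type atRA+PKCi replicate 2, with adjusted p up to 0.119. Hist1h1d was at 3.72 and 3.71 CPM in FBS and 2.82 and 3.07 CPM in atRA+PKCi and was not called.

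Among the H2A genes, Hist3h2a (ENSMUSG00000078851, chr11:58954685-58956830, plus strand) has a tail of 1700 bases, the longest among the 3 most abundant members. Wild-type libraries held it at 10.3 and 12.0 CPM in FBS and at 21.3 and 23.1 CPM in atRA+PKCi. Every atRA+PKCi library was above every FBS library, with a rise of 1.00 on the log2 scale (SE 0.11, edgeR adjusted p = 7.74e-05). Hist1h2ac, an H2A gene of the large cluster, was at 0.986 and 0.695 CPM in FBS and 1.76 and 1.93 CPM in atRA+PKCi (1.13, SE 0.31, edgeR adjusted p = 0.0128). Its call was lost without replicate 2 of either group, with adjusted p up to 0.071.

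Among the H2B genes, Hist1h2bc (ENSMUSG00000018102, chr13:23684199-23692908, plus strand, with a tail of 742 bases) went from 54.2 and 66.1 CPM in wild-type FBS to 45.3 and 47.3 CPM in wild-type atRA+PKCi. It fell by 0.38 (log2, SE 0.11, edgeR adjusted p = 0.0211), a call that was lost when wild-type FBS replicate 2 or either wild-type atRA+PKCi library was left out (adjusted p up to 0.111). Hist3h2ba was at 0.146 and 0.309 CPM in FBS and 1.57 and 1.24 CPM in atRA+PKCi. Its rise of 2.61 (log2, SE 0.70, edgeR adjusted p = 0.0122), at less than 2 CPM, lost its call without replicate 1 of either wild-type group. Hist3h2ba was at no more than 0.324 CPM in the libraries of the other groups. It thus passed the filter on low counts only through the group where it was high, and nothing is drawn from the size of the rise. The call was kept with no such filter. Hist1h2bg (1.27) and Hist2h2be (1.23) also rose on the log2 scale, each from below 1 CPM.

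Hist1h2bq rose by 1.54 (log2, SE 0.45, edgeR adjusted p = 0.0178), from 0.438 and 0.657 CPM to 2.02 and 1.17 CPM, and lost its call without replicate 1 of either wild-type group (adjusted p up to 0.116). Only 1.74% of the 31-base words in its transcripts are found in no other gene, so its reads can be divided between near-identical genes and its level is uncertain. The same limit holds for 42 members with under 50% of such words, among them Hist1h4m (8.33%), Hist1h3b (38.1%), Hist1h2ap (6.64%) and Hist2h2aa2 (0%).

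The H4 genes that were called were low. Hist1h4c was at 0.329 and 0.773 CPM in FBS and 0.128 and 0.0317 CPM in atRA+PKCi (log2 fold change -2.72, SE 0.79, edgeR adjusted p = 0.0172), lost without replicate 2 of either wild-type group (adjusted p up to 0.126). Hist1h4h was at 0.913 and 1.93 CPM in FBS and 0.770 and 0.539 CPM in atRA+PKCi, with an edgeR adjusted p of 0.0497 that was lost under 11 of 13 alternatives. Hist1h4m (edgeR adjusted p = 0.0498) lost its call under all 12 of its alternatives. With the mouse as a block the edgeR adjusted p was 0.0977 for Hist1h4h and 0.0997 for Hist1h4m. Hist1h4i, the most abundant H4 gene, was at 5.00 and 6.72 CPM in FBS and 5.04 and 4.53 CPM in atRA+PKCi, and the groups overlapped.

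In Rxra cKO cultures, 4 members were higher in atRA+PKCi than in FBS (20.8% of all genes) and 3 were lower (22.2% of all genes), again smaller shares of the 37 tested members than of all genes. The median log2 fold change was 0.09 over the members and 0.02 over all genes. Hist3h2a was at 10.6 and 12.1 CPM in Rxra cKO FBS and at 23.8 and 24.5 CPM in Rxra cKO atRA+PKCi. It rose by 1.09 (log2, SE 0.11, edgeR adjusted p = 7.26e-05), which remained called under all 13 alternatives.

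Hist1h1c was at 67.3 and 74.4 CPM in Rxra cKO FBS and at 96.1 and 106 CPM in Rxra cKO atRA+PKCi, a rise of 0.51 (log2, SE 0.09, edgeR adjusted p = 0.00161). Hist1h2bc went from 48.7 and 58.7 CPM to 66.8 and 69.8 CPM and rose by 0.35 (SE 0.11, edgeR adjusted p = 0.036), a call lost without wild-type atRA+PKCi replicate 2, Rxra cKO FBS replicate 1 or either Rxra cKO atRA+PKCi library (adjusted p up to 0.182). For both genes the atRA+PKCi libraries were above the FBS libraries here and below them in wild-type.

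Hist2h2aa2 (chr3:96239749-96240276, minus strand) was at 5.39 and 5.09 CPM in Rxra cKO FBS and 9.53 and 12.6 CPM in Rxra cKO atRA+PKCi, a rise of 1.07 (log2, SE 0.17, edgeR adjusted p = 0.00101). None of its 31-base words is unique, and Hist2h2aa1 beside it is a near-identical copy, so the division of reads between the pair is uncertain. Hist1h2bq was at 2.05 and 2.30 CPM in FBS and 0.681 and 0.298 CPM in atRA+PKCi and fell by 2.10 (log2, SE 0.44, edgeR adjusted p = 0.00485). Hist1h3c (log2 fold change -2.53) and Hist1h4m (-1.26) were also called lower, and each lost its call under 6 or more alternatives, the one without Rxra cKO FBS replicate 2 and those without either Rxra cKO atRA+PKCi library among them. With the mouse as a block the edgeR adjusted p was 0.0581 for Hist1h3c and 0.075 for Hist1h4m. Hist1h3c was at no more than 0.253 CPM in the atRA+PKCi libraries of either genotype. It thus passed the filter on low counts only through FBS, where it was high, and nothing is drawn from the size of its fall.

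The genotypes were compared within each medium, with the same libraries as above, so these contrasts share their controls with the medium contrasts. In FBS, 6 members were higher in the libraries labelled Rxra cKO (22.3% of all genes) and 2 were lower (20.5%). The median log2 fold change was 0.22 over the members and 0.02 over all genes. Hist1h3b, an H3 gene with a short tail, was at 0.402 and 0.116 CPM in wild-type and 1.22 and 2.33 CPM in Rxra cKO (2.75, SE 0.52, edgeR adjusted p = 0.00301). Hist1h4m was at 0.110 and 0.116 CPM in wild-type and 0.863 and 1.17 CPM in Rxra cKO (3.13, SE 0.50, edgeR adjusted p = 0.00113). In both genes the genotypes did not overlap, at levels near 1 CPM.

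Hist1h2ac was at 2.09 and 3.27 CPM in Rxra cKO FBS, above the wild-type values of 0.986 and 0.695 CPM (1.67, SE 0.30, edgeR adjusted p = 0.00233). Hist1h2bq (1.99) and Hist1h2bg (1.46, lost without replicate 1 of either FBS group) were higher too, and Hist1h2ae (2.08, edgeR adjusted p = 0.0475) lost its call under 11 of 13 alternatives. Hist1h2ae was at 0.396 and 0.583 CPM in Rxra cKO FBS and at no more than 0.193 CPM in wild-type. It passed the filter on low counts only with the Rxra cKO FBS libraries, where it was high, and nothing is drawn from the size of its rise. Hist1h1c was lower by 0.39 on the log2 scale (SE 0.09, edgeR adjusted p = 0.00714), with 0.0531 without Rxra cKO FBS replicate 1. Hist1h2aa, a member of H2A best known from testis, was at 2.12 and 2.43 CPM in wild-type and 1.22 and 1.39 CPM in Rxra cKO (log2 fold change -0.80, SE 0.23, edgeR adjusted p = 0.0219), and lost its call without wild-type FBS replicate 2 or either Rxra cKO FBS library (adjusted p up to 0.0914).

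In atRA+PKCi, 6 members were higher in Rxra cKO (23% of all genes) and 2 were lower (20.2%). The median log2 fold change was 0.52 over the members and 0.00 over all genes. Hist1h1c was at 58.8 and 56.2 CPM in wild-type and 96.1 and 106 CPM in Rxra cKO (0.82, SE 0.09, edgeR adjusted p = 0.000109). Hist1h2bc was at 45.3 and 47.3 CPM against 66.8 and 69.8 CPM (0.56, SE 0.11, edgeR adjusted p = 0.00392). The 2 most abundant members were thus higher in every Rxra cKO library of this medium.

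Hist1h3b was at 0.160 and 0.158 CPM in wild-type atRA+PKCi and 1.94 and 1.97 CPM in Rxra cKO (3.58, SE 0.55, edgeR adjusted p = 0.00085), called under all 13 alternatives. Hist1h1d was at 2.82 and 3.07 CPM in wild-type and 4.14 and 6.22 CPM in Rxra cKO (0.80, SE 0.21, edgeR adjusted p = 0.0147), lost without replicate 1 of wild-type or replicate 2 of Rxra cKO (adjusted p up to 0.124). Hist2h2aa1 (1.22) and Hist2h2aa2 (0.73) were higher as well, and each lost its call without Rxra cKO atRA+PKCi replicate 2. The call of Hist2h2aa1 was also lost without Rxra cKO atRA+PKCi replicate 1 or wild-type atRA+PKCi replicate 2 (edgeR adjusted p up to 0.16). Hist3h2ba, which passed the filter only through wild-type atRA+PKCi, was at 1.57 and 1.24 CPM in wild-type and 0.105 and 0.224 CPM in Rxra cKO. Its log2 fold change was -3.13 (SE 0.72, edgeR adjusted p = 0.0075), and the call was lost without Rxra cKO atRA+PKCi replicate 1. Hist1h2bq was lower by 1.65 (log2, SE 0.44, edgeR adjusted p = 0.0152), and lost its call without replicate 1 of wild-type or replicate 2 of Rxra cKO in this medium (adjusted p up to 0.105).

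The difference between the medium effects of the genotypes was tested itself, as the effect in Rxra cKO minus that in wild-type. It was called higher for 3 members (13.3% of all genes) and lower for 2 (11.3%). The effect on Hist1h1c differed by 1.20 (log2, SE 0.12, edgeR adjusted p = 0.00025), from a fall of 0.69 in wild-type to a rise in Rxra cKO. Hist1h2bc differed by 0.72 (SE 0.16, edgeR adjusted p = 0.0119, and 0.0514 without Rxra cKO atRA+PKCi replicate 2). Hist1h2bq went the other way, by -3.64 (SE 0.63, edgeR adjusted p = 0.0035). The calls of Hist2h2aa2 (0.89) and Hist1h4m (-2.73) were each lost under 7 of 12 alternatives, and that of Hist1h4m also with the mouse as a block (edgeR adjusted p = 0.0532).

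**Figure D2:**
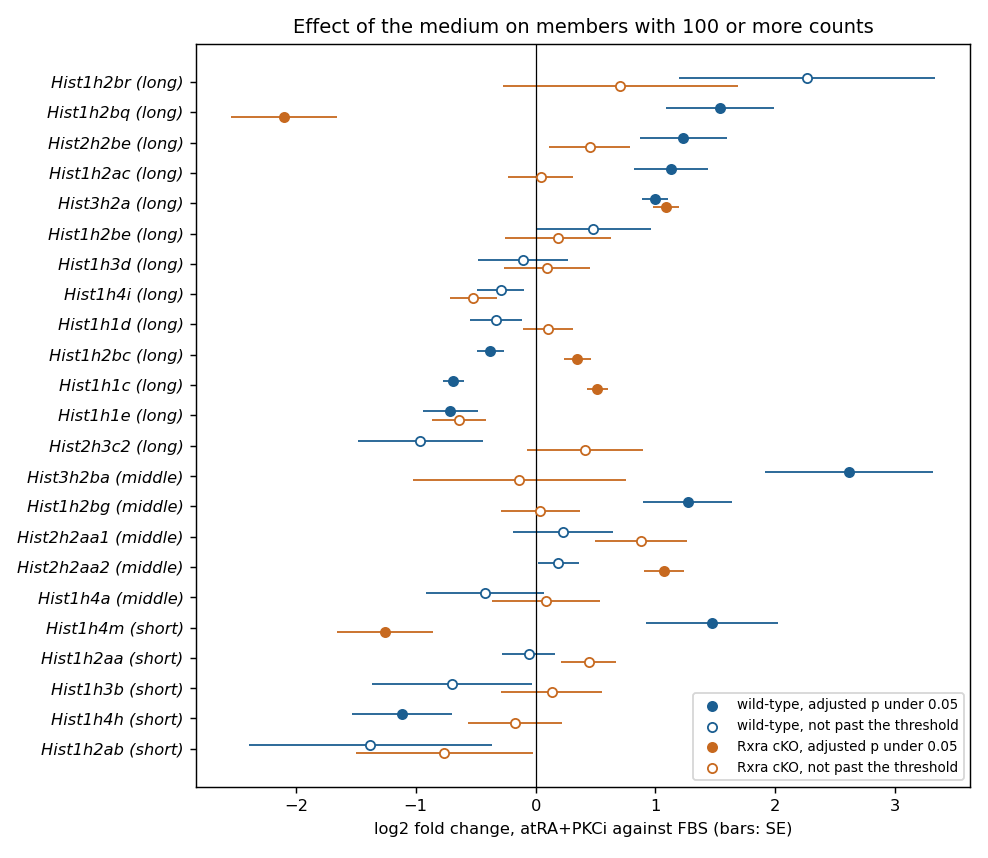
Log2 fold change of atRA+PKCi against FBS (x axis) for the histone cluster genes with at least 100 counts in all, in wild-type (blue) and Rxra cKO (orange), with bars for the SE, filled points for an adjusted p under 0.05 and the tail class in brackets. Hist3h2a lies at 1.00 and 1.09, while Hist1h1c and Hist1h2bc are below 0 in wild-type and above 0 in Rxra cKO.

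Genes that act with cluster histones were counted in the same fit. The Mcm helicase and its loaders, which open DNA for replication, had 3 of 10 tested genes higher in atRA+PKCi and 1 lower in wild-type, and 0 higher and 8 lower in Rxra cKO. Of 13 genes of G2 and mitosis, atRA+PKCi had 2 higher and 5 lower in wild-type, and 0 higher and 13 lower in Rxra cKO. Top2a, the topoisomerase of dividing cells, was at 208 and 183 CPM in wild-type FBS, then 169 and 160 in wild-type atRA+PKCi, 233 and 198 in Rxra cKO FBS, and 91.9 and 97.9 CPM in Rxra cKO atRA+PKCi. The group with the highest summed histone level was thus the group with the lowest Top2a level. The long members dominate that sum. Long and middle members had their highest means in this group, at 217.4 and 16.4 CPM. Short members had theirs in Rxra cKO FBS, at 11.1 CPM against 9.63 CPM in Rxra cKO atRA+PKCi, with overlapping libraries.

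Histone mRNA processing genes (13 tested) had 3 higher in atRA+PKCi and 2 lower in wild-type, and 1 higher and 3 lower in Rxra cKO. These counts were near or below the shares of all genes. Slbp, the stem-loop binding protein, was at 27.01 and 33.0 CPM in the wild-type libraries with FBS and 37.3 and 34.9 CPM in those with atRA+PKCi (0.27, edgeR adjusted p = 0.0454). It was at 37.4 and 36.5 CPM in Rxra cKO FBS and 30.4 and 30.3 CPM in Rxra cKO atRA+PKCi (log2 fold change -0.29, edgeR adjusted p = 0.0415). Eri1, an exonuclease that degrades histone mRNA, was lower in atRA+PKCi in both genotypes, by -0.52 in wild-type and -0.53 in Rxra cKO on the log2 scale. Of 11 tested histone chaperones, 4 were higher in atRA+PKCi and 1 was lower in wild-type, against 1 and 3 in Rxra cKO.

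The 10 tested variant histones lie outside the clusters, and most are polyadenylated and made throughout the cell cycle. They had 3 higher in atRA+PKCi and 1 lower in wild-type, and 2 of each in Rxra cKO. H2afz, the H2A.Z gene, was at 227 and 282 CPM in wild-type FBS against 167 and 186 CPM in wild-type atRA+PKCi, and at 273 and 316 CPM in Rxra cKO FBS against 147 and 147 CPM in Rxra cKO atRA+PKCi. It was lower in atRA+PKCi in both genotypes (log2 fold change -0.53, edgeR adjusted p = 0.0044, and -1.01). H2afv, which encodes another form of H2A.Z, went the other way, with log2 fold changes of 1.07 and 0.60. H2afy2, a macroH2A gene, was at 0.694 to 1.62 CPM in wild-type and at 19.7 to 24.0 CPM in Rxra cKO, with no overlap (4.58 in FBS and 3.93 in atRA+PKCi on the log2 scale).

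Markers of other cells moved with the groups. The suprabasal keratin list summed to 1915 and 2124 CPM in wild-type FBS, then 75.3 and 81.0 in wild-type atRA+PKCi, 983 and 1235 in Rxra cKO FBS and 421 and 385 CPM in Rxra cKO atRA+PKCi. In Rxra cKO its genes went both ways from FBS to atRA+PKCi. Sbsn went from 749 and 910 to 259 and 246 CPM, and Krtdap from 222 and 313 to 88.5 and 82.4 CPM. The keratins went up, Krt1 from 3.02 and 2.88 to 43.4 and 33.5 CPM and Krt10 from 8.60 and 8.36 to 29.75 and 22.9 CPM. The mural list, led by Acta2, was at 16.2 CPM in both Rxra cKO atRA+PKCi libraries and at no more than 1.39 CPM elsewhere. Fibroblast collagens stayed at or below 6.13 CPM and immune markers at or below 1.86 CPM. The part of the suprabasal and mural genes in the histone differences was not tested.

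In skin, cells were separated by their Mcm2 to Mcm7 and Top2a UMIs, after each cell was thinned to 3000 UMIs. Of the cells kept, 14458 and 13915 in the 2 mice, 847 and 1111 were shallower than that and were left out. Cells with at least 2 Mcm UMIs and at least 1 Top2a UMI ("Mcm with Top2a") numbered 1382 and 1073, cells with Mcm but no Top2a 1017 and 910, cells with Top2a but under 2 Mcm UMIs 2324 and 2113, and cells with neither 8888 and 8708. Because the Mcm and Top2a UMIs chose the cells, their own levels are no result. Genes that chose no cells were checked instead. The S-phase list (Rrm2, Pcna and others) had a mean of 2.98 and 2.91 UMIs per thinned cell in Mcm with Top2a, 1.68 and 1.70 in Mcm without Top2a, 0.946 and 0.937 in Top2a without Mcm and 0.287 and 0.292 in neither. The list of G2 and mitosis (Ccnb1, Cdc20 and others) was highest in Top2a without Mcm, at 2.24 and 1.82, followed by 1.78 and 1.52 in Mcm with Top2a, 0.776 and 0.670 in Mcm without Top2a and 0.270 and 0.251 in neither. The class "Mcm with Top2a" is therefore the one in which the S-phase list was highest in both mice, and "Top2a without Mcm" the one in which the mitotic list was.

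The cuts are ranges and not cell types. In the 2 mice, 1870 and 1899 cells of the class neither had 1 Mcm UMI, and 507 and 486 cells of Mcm without Top2a were at the threshold of 2. Before thinning, the median UMIs per cell were 12370 and 14496 in Mcm with Top2a and 8476.5 and 10746 in neither. The 2 skin matrices share 62 cell barcodes, and the counts of called members below were the same when these were left out.

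Histone cluster genes made up 0.519% and 0.465% of all UMIs in Mcm with Top2a cells. The share was 0.318% and 0.268% in Top2a without Mcm, 0.131% and 0.116% in Mcm without Top2a, and 0.0533% and 0.0462% in neither. The order of the classes was the same in both mice, and their exact binomial 95% intervals, which cover counting error only, did not overlap within a mouse. Against neither, the share was 9.75 and 10.1 times as high in Mcm with Top2a, 5.98 and 5.80 times in Top2a without Mcm and 2.45 and 2.51 times in Mcm without Top2a.

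By family, the level in Mcm with Top2a against neither was 16.5 and 17.5 times as high for H2A, 13.7 and 12.6 times for H1, 10.8 and 13.3 times for H3, 5.15 and 5.85 times for H4 and 2.66 and 3.54 times for H2B. By tail, the factor was 25.5 and 23.3 for the short members together, 13.6 and 16.8 for the middle members and 4.08 and 4.60 for the long members. These sums are weighted by their most abundant members. Without Hist1h2bc the factor for H2B was 8.79 and 9.79, above that of H4. Without Hist1h1b it was 15.7 and 15.99 for the short members, which is below the middle members in mouse 2, and 6.36 and 6.44 for H1. In both mice the long members stood lowest among the tail classes with all members counted.

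**Figure D3:**
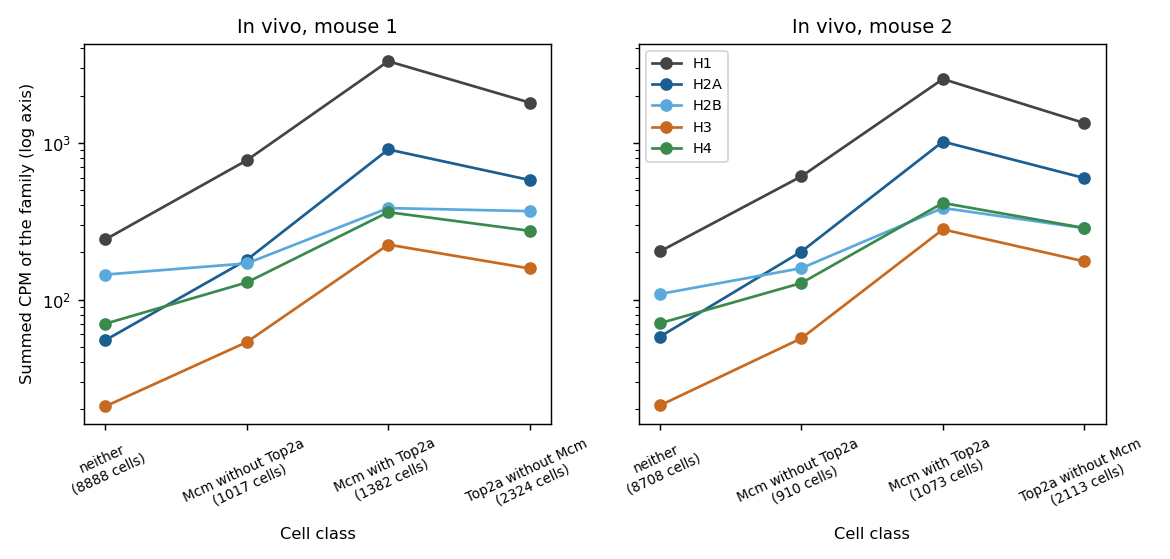
Summed level of each histone family (coloured lines) in the 4 cell classes of skin (x axis), in CPM on a log axis, with a panel for each of the 2 mice. In every family the level is highest in Mcm with Top2a cells.

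**Figure D4:**
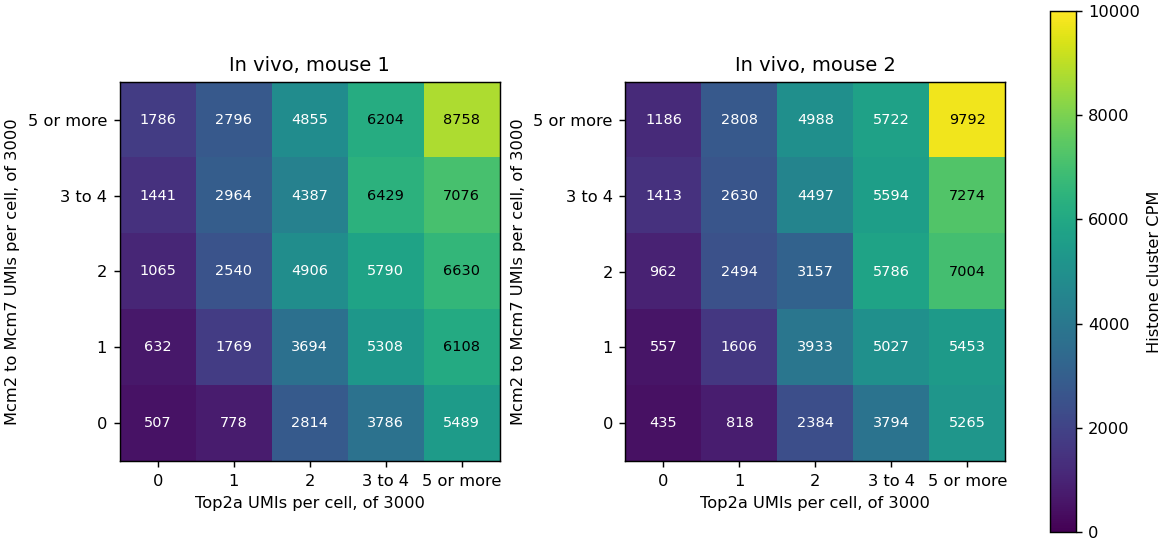
Summed level of the histone cluster genes in skin cells binned by their thinned Top2a UMIs (x axis) and Mcm2 to Mcm7 UMIs (y axis), with a panel for each mouse and the colour and number giving CPM. Levels run from 507 and 435 CPM with no UMI of either to 8758 and 9792 CPM in the bin with the most of both.

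The gradient was followed in finer bins. With 0 Mcm UMIs, the histone level went from 507 CPM with 0 Top2a UMIs to 778 with 1, 2814.5 with 2, 3786 with 3 or 4 and 5489 with 5 or more in mouse 1, and from 435 to 818, 2384, 3794 and 5265 CPM in mouse 2. With 0 Top2a UMIs, it went from 507 with 0 Mcm UMIs to 632, 1065, 1441 and 1786 CPM in mouse 1, and to 1413 CPM with 3 or 4 and 1186 CPM with 5 or more in mouse 2. Without Mcm, cells with 1 Top2a UMI were thus nearer to the cells with no UMI of either than to those with 2 Top2a UMIs, in both mice.

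UMIs summed per mouse and class were tested over 17174 genes with the mouse as a block. Of 62 members tested, 59 were higher in Mcm with Top2a than in neither, against 36.8% of all genes, and 3 were lower, against 36.6%. The median log2 fold change was 3.48 over the members and -0.01 over all genes. Of the 59, 39 rose by more than 8-fold, a cut for which no share over all genes is given here. The medians were 4.15 for H2A, 4.04 for H1, 3.52 for H2B, 3.36 for H3 and 2.63 for H4, and 3.75 for short, 3.45 for middle and 2.29 for long tails. The 8 members not tested were Hist1h2aa, Hist1h2aj, Hist1h2al, Hist1h2ba, Hist1h2bq, Hist1h4m, Hist2h2aa2 and Hist3h2bb-ps, so those that passed the filter are not all members.

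Among the H1 genes, Hist1h1b (ENSMUSG00000058773, chr13:21779883-21780625, minus strand) encodes a replication-linked H1 and alone held 28.8% of the histone UMIs in skin. In mouse 1 it was at 55.9 CPM in neither, 411 in Mcm without Top2a, 2130 in Mcm with Top2a and 1046 in Top2a without Mcm. In mouse 2 the levels were 44.1, 294.5, 1529 and 729 CPM in the same order. The classes stood in the same order in both mice, and Hist1h1b rose by 5.24 in Mcm with Top2a against neither (log2, SE 0.10, edgeR adjusted p = 9.69e-11). Within the histone UMIs, it made up 41.0% and 32.9% in Mcm with Top2a and 10.5% and 9.56% in neither.

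Hist1h1a, another linker histone, was at 2.66 and 3.10 CPM in neither and 129 and 115 CPM in Mcm with Top2a. Its rise of 5.44 (log2, SE 0.12, edgeR adjusted p = 1.21e-10) was the largest of the members called. Hist1h1e, second by UMIs with 15.1% of the total, was at 99.4 and 81.5 CPM in neither and 755 and 608 CPM in Mcm with Top2a (2.97, SE 0.08, edgeR adjusted p = 2.04e-10). Hist1h1c was at 68.4 and 58.1 CPM in neither and 144 and 123 CPM in Mcm with Top2a (1.13, SE 0.07, edgeR adjusted p = 5.33e-08), and this call was lost when only cells led by basal keratins were used. Among these 4 H1 genes, the rise was thus smallest for Hist1h1c and above 5 on the log2 scale for Hist1h1a and Hist1h1b. Hist1h1d, with the longest tail of the H1 genes (4931 bases), was at 15.5 and 16.2 CPM in neither and 155 and 177 CPM in Mcm with Top2a.

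Of the H2A genes, Hist1h2ap was at 10.5 and 8.80 CPM in neither and 347.5 and 332 CPM in Mcm with Top2a (5.20, SE 0.09, edgeR adjusted p = 7.49e-11), with 6.64% unique words. Hist1h2af was at 0.305 and 0.631 CPM in neither and 16.6 and 21.1 CPM in Mcm with Top2a (5.36, SE 0.19, edgeR adjusted p = 1.01e-09). Hist3h2a was at 12.6 and 11.4 CPM in neither, 12.4 and 8.04 in Mcm without Top2a, 25.7 and 18.5 in Mcm with Top2a and 30.6 and 18.8 CPM in Top2a without Mcm. Hist3h2a rose by 0.91 in Mcm with Top2a (log2, SE 0.14, edgeR adjusted p = 0.000117), and its level was highest in Top2a without Mcm in both mice.

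Hist1h2bc, the H2B gene with the most UMIs, moved against the family. It was at 108 and 74.6 CPM in neither, 77.6 and 65.3 in Mcm without Top2a, 61.9 and 50.7 in Mcm with Top2a and 109 and 66.4 CPM in Top2a without Mcm. It was lower in Mcm with Top2a than in neither in both mice (log2 fold change -0.63, SE 0.11, edgeR adjusted p = 0.000281), though the call was lost without the mouse block. The other 2 members called lower were the H3 genes Hist2h3c1 (log2 fold change -1.13, SE 0.26, edgeR adjusted p = 0.00206) and Hist2h3c2 (-1.16, SE 0.36, edgeR adjusted p = 0.0125), which lie at no more than 3.38 CPM in any class. The call of Hist2h3c2 was lost under 4 of 9 alternatives. Hist2h3c1 was at 2.92 and 3.38 CPM in neither and 1.67 and 1.10 CPM in Mcm with Top2a, and 0% of its words are unique.

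Of the H3 and H4 genes that rose, Hist1h3c was at 3.45 and 4.06 CPM in neither and 93.0 and 120.2 CPM in Mcm with Top2a. Hist1h4d was at 10.3 and 18.1 CPM in neither and 110.2 and 191 CPM in Mcm with Top2a. Hist1h4i, the most abundant H4 gene in bulk, was at 17.5 and 12.1 CPM in neither and 74.6 and 44.2 CPM in Mcm with Top2a. Of the 62 tested members, 57 were highest in Mcm with Top2a in both mice, a count for which no share over all genes is given here.

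**Figure D5:**
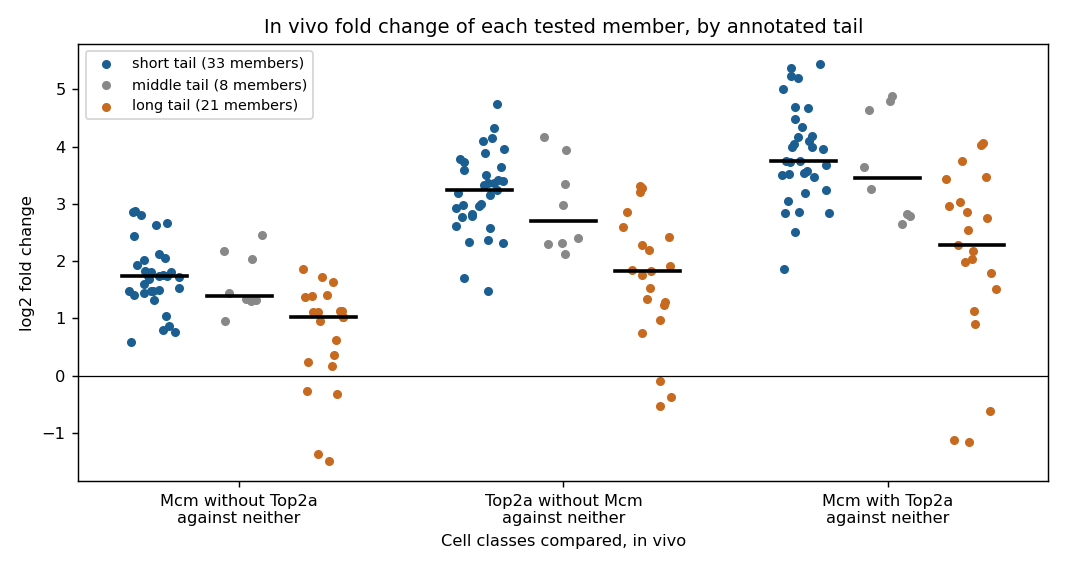
Log2 fold change of each tested member (points) in 3 cell classes of skin against neither (x axis), coloured by the length class of the annotated tail, with black bars for the medians. In Mcm with Top2a the median is 3.75 for short, 3.45 for middle and 2.29 for long tails, and Hist1h2bc, Hist2h3c1 and Hist2h3c2 lie below 0.

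In Mcm without Top2a against neither, 52 members were higher (32.7% of all genes) and 3 were lower (29.9%), with a median log2 fold change of 1.46. The count of 55 called members was 19 when classes were taken without thinning and 6 in cells led by basal keratins. Hist1h2an (2.87), Hist1h1a (2.86), Hist1h1b (2.81) and Hist1h2ap (2.63) had large rises, the former 3 the largest among the called members. Hist1h1c (0.17, edgeR adjusted p = 0.0596) and Hist3h2a (-0.26, adjusted p = 0.185) were not called. Hist1h2bc (-0.33, edgeR adjusted p = 0.0215), Hist2h3c1 (-1.38) and Hist2h3c2 (-1.50) were lower, and these 3 calls were among those lost without thinning.

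In Top2a without Mcm against neither, 59 members were higher (28.4% of all genes) and 0 were lower by edgeR (28.1% of all genes, and 1 member at an unadjusted p under 0.05), with a median of 2.84. Among the called members the largest rises were those of Hist1h2af (4.75), Hist1h2ap (4.33) and Hist1h3c (4.17), and the smallest those of Hist1h1c (0.74), Hist3h2a (0.97) and Hist4h4 (1.24). Without thinning the count of called members was 29, and the calls of Hist1h1c, Hist3h2a and Hist4h4 were lost. That of Hist3h2a was also lost without the mouse block, and that of Hist1h1c in cells led by basal keratins. Hist1h2bc was not called (-0.09, edgeR adjusted p = 0.454).

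The classes with and without Mcm among the Top2a cells were also compared directly. Of the 62 members, 49 were higher in Mcm with Top2a (23.1% of all genes) and 1 was lower (22.5%), with a median difference of 0.61 on the log2 scale. Among the called members the largest differences were those of Hist1h1a (1.30), Hist1h1t (1.29, on 71 UMIs in all and lost under 7 of 9 alternatives) and Hist1h1b (1.13). Hist1h2bc was lower by 0.53 (log2, edgeR adjusted p = 0.00241), a call lost without the mouse block and in cells led by basal keratins. The call of Hist1h1b was also lost without the mouse block. The count of 50 called members was 16 without the mouse block, 23 with classes from 1500 UMIs per cell, 9 with higher class thresholds and 6 in cells led by basal keratins.

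Skin holds several cell populations, and the sort did not leave only epithelium. Cells in which the fibroblast collagen list led the other lists numbered 1448 and 2982, and cells led by the immune list 199 and 362. Pdgfra, which encodes CD140a, was at 155 and 239 CPM, and Kit, which encodes CD117, at 31.1 and 28.3 CPM. Of the fibroblast-led cells 0.345% and 0.838% were in Mcm with Top2a, and of cells led by inner root sheath keratins 21.4% and 21.8% were. Cells led by matrix factors were at 20.9% and 18.4%, and those led by basal keratins at 7.37% and 6.48%.

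Among these 4 lists the histone level followed the same order. It was 3522 and 3634 CPM in cells led by inner root sheath keratins, 2952 and 2503 in cells led by matrix factors, 1447 and 1391 in cells led by basal keratins and 350 and 409 CPM in fibroblast-led cells. Not every list kept to this order. In mouse 1, cells led by hair shaft keratins had a smaller share in Mcm with Top2a than those led by basal keratins (6.93% against 7.37%). Their histone level was higher, at 1638 against 1447 CPM. Within the class Mcm with Top2a alone, the levels were 6117 and 6469 CPM for the inner root sheath list, 5149 and 4487 for matrix factors and 3777 and 4542 CPM for basal keratins. Within neither, they were 858 and 959, 963 and 857, and 790 and 655 CPM, and 332 and 326 CPM in fibroblast-led cells. In Mcm with Top2a the inner root sheath list was above matrix factors and basal keratins in both mice, and the order of matrix factors and basal keratins differed between the mice. In cells led by basal keratins alone, the test between Mcm with Top2a and neither gave the same side of the threshold for Hist1h1b, Hist1h1a, Hist1h1e and Hist1h2ap. Free RNA in droplets can give histone UMIs to cells that do not express them, and the 332 and 326 CPM of fibroblast-led cells with neither Mcm nor Top2a is the lowest of these 4 lists.

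Genes that act with the histones moved with the same classes. Of 13 tested processing genes 12 were higher in Mcm with Top2a than in neither (36.8% of all genes), with a median log2 fold change of 1.25, and 0 were lower (36.6%). All 11 tested chaperones were higher, with a median of 1.82. Slbp was 2.22 higher in Mcm with Top2a, 1.70 in Mcm without Top2a and 0.84 in Top2a without Mcm, on the log2 scale. Chaf1b, a subunit of the CAF-1 complex that places new histones on copied DNA, was 3.54, 3.21 and 1.75 higher. Against Top2a without Mcm, 11 processing genes and 10 chaperones were higher in Mcm with Top2a (23.1% of all genes), among them Slbp by 1.39.

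In culture the single-cell data were few. After filters on genes, UMIs and mitochondrial share and after hashtag doublets were taken out, 222 and 78 singly tagged cells of the 2 mice remained. Krt14 was the leading gene of the HFSC list, and fibroblast collagens were at 0. Krt15 was at 1880 and 1046 CPM, Sox9 at 226 and 178 CPM and Itga6 at 92.5 and 157 CPM. Cd34, the marker by which the cells had been sorted before culture, had 0 UMIs in both mice, and Lhx2 had 2 and 0. By the study's account BMP2/4, R-spondin (Rspo) and RARi (a retinoic acid receptor inhibitor) were given on top of atRA and PKCi. The effect of BMP2/4 in the comparison with B-27 therefore cannot be told apart from that of atRA and PKCi. Histones made up 228 and 291 CPM in B-27, 180 and 237 CPM with BMP2/4, 226 and 165 CPM with Rspo, 190 and 126 CPM with Rspo+BMP2/4, and 83.2 and 431 CPM when RARi was added to the latter. The RARi values of the 2 mice rest on 8 and 260 histone UMIs in 5 and 21 cells, and Top2a was at 10.4 and 173 CPM in the same cells. With atRA+PKCi there were 2 cells and 1 cell, which held 13 and 2 histone UMIs, and no cell with the FBS tag passed.

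Over 6265 tested genes, of which 5 were members, 1 member was lower and 0 were higher with BMP2/4 than in B-27 (5.28% and 0.431% of all genes). Hist1h1c was at 84.7 and 54.6 CPM in B-27 and 14.1 and 15.7 CPM with BMP2/4, a fall of 2.09 (log2, SE 0.50, edgeR adjusted p = 0.00851), which was lost under 4 of 5 alternatives. The B-27 values rest on 5 and 10 cells. The suprabasal keratin list was lower in the same comparison (3 of 3 tested genes, median log2 fold change -2.77), and its part in the Hist1h1c value was not tested. In Rspo+BMP2/4 against BMP2/4, and with RARi added, 0 members and 0% of all genes were called by edgeR. At an unadjusted p under 0.05 there were 0 members in the former and 1 in the latter, Hist1h1b (1.54, edgeR adjusted p = 0.959). With 5 of 67 members past the filter, changes in most members were not detectable at this depth.

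The separation by Mcm and Top2a could not be tested in culture, since the class Mcm with Top2a held 1 and 0 cells. An alternative chosen after the data were seen set 12 and 7 cells with a Top2a UMI against 185 and 58 cells without. Over 8410 genes, 1 of 7 tested members was higher (0.19% of all genes) and 0 were lower (0.143%). It was Hist1h1a (log2 fold change 3.42, SE 0.59, edgeR adjusted p = 0.00835), which had 11 and 13 UMIs in all the cultured cells of the 2 mice. The call was lost without the filter on low counts, by DESeq2 and without the mouse block, and with a mitochondrial share under 20% the gene did not pass the filter, so nothing is drawn from it. Hist1h1b (2.06, adjusted p = 0.0586) and Hist1h2ap (1.86, adjusted p = 0.131) were not called.

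The make-up of the histone signal differed between the assays, which were not made or normalized together and are set side by side only. Members with short tails held 3.54% to 6.23% of the summed CPM in each of the 8 bulk libraries. They held 52.1% and 47.0% of the histone UMIs in skin, and 32.8% and 41.0% in the cultured single cells. Hist1h1b held 0.0531% to 0.387% of the summed CPM in the bulk libraries, against 31.9% and 25.2% of histone UMIs in skin and 16.5% and 22.5% in cultured single cells. Hist1h1c went the other way, with 34.3% to 47.6% in bulk, 5.19% and 5.36% in skin and 8.76% and 7.31% in cultured single cells. The bulk libraries and the cultured cells come from different mice, media and library methods, and which of these goes with the difference cannot be told apart.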

How the data were processed

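Bulk libraries were quantified by the authors with Salmon 1.4.0, summed to genes (tximport) and deposited as estimated counts, which were rounded here. Library kit and strand are not given in the sources used here. Single-cell values were UMI counts that the authors deposited as Cell Ranger matrices (7.0.1 in the submitters' processing notes, mm10). The members and gene lists were chosen with earlier results of these data known.

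Bulk counts were fitted with edgeR 4.0.16 (R 4.3.3, TMM, filterByExpr, quasi-likelihood test) with 1 mean per group over all 8 libraries (4 residual degrees of freedom), with Benjamini-Hochberg adjustment over all genes. SEs were taken from the log2 fold change and its F. By the labels the 2 media of a genotype share their mice, so the fit with the mouse as a block is given where it changes a call. Same-mouse libraries correlated in their deviations at 0.112 (wild-type) and -0.0022 (Rxra cKO). P-values measure the spread between these samples.

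Cells needed 500 genes, 1000 UMIs and a mitochondrial share under 10%. HTODemux (Seurat 5.3.0) assigned the hashtags, its doublets were left out, and no doublet caller was run on skin. UMIs summed per mouse and class were fitted with the mouse as a block (in skin, deviations of the same mouse correlated at 0.349 to 0.730) at an adjusted p under 0.05. Sums per mouse and culture condition were fitted without it, at an adjusted p under 0.01 with a log2 fold change over 1. Fits were tested on simulated data. Of genes changed by 1 on the log2 scale, 76% were recovered in bulk, 77% in skin and 1% in culture. Of genes changed by 2 on that scale, 93%, 100% and 40% were recovered, in the same order. Intervals are exact binomial and cover counting error only. Named members were the 3 most abundant of each family in bulk, the 5 with the most UMIs, and the called members with the 3 largest and 3 smallest changes in each contrast, and others were chosen after their values were seen. Alternatives tried were no filter on low counts, DESeq2 1.42.0, each library left out, other blocks, other cell filters and other class thresholds.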

Additional observations from a re-analysis of the deposited data

Results flagged for a closer look

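The effect of the medium on 5 members differed between the genotypes in the test of the difference itself (edgeR interaction, Rxra cKO minus wild-type, on the log2 scale). Of the 37 tested members 3 were higher and 2 lower, against 13.3% and 11.3% of all genes. The difference was 1.20 for Hist1h1c, 0.72 for Hist1h2bc, 0.89 for Hist2h2aa2, -3.64 for Hist1h2bq and -2.73 for Hist1h4m. Hist1h1c and Hist1h2bc are the 2 most abundant members, whereas Hist1h2bq, Hist1h4m and Hist2h2aa2 share most of their sequence with other genes. The calls of Hist2h2aa2 and Hist1h4m were each lost under 7 of 12 alternatives. Top2a and the mural gene Acta2 moved with the Rxra cKO atRA+PKCi group, and their part in these differences was not tested.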

How the results depend on the processing

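Of 890 alternative values for named members, 727 kept direction and, where there was a p-value, side of the threshold. Another 159 kept direction only and 4 reversed. Values from a single mouse have no p-value, so among the 727 they were counted by direction alone. Alternatives in which a member did not pass the filter are not counted. In bulk, leaving out a library gave 5 (without wild-type atRA+PKCi replicate 2) to 12 (without Rxra cKO FBS replicate 1) called members for the medium in wild-type, 4 (without Rxra cKO atRA+PKCi replicate 1) to 8 (without wild-type FBS replicate 1) for the medium in Rxra cKO, 5 (without Rxra cKO FBS replicate 1) to 10 (without wild-type FBS replicate 2) for genotype in FBS, 4 (without Rxra cKO atRA+PKCi replicate 2) to 11 (without wild-type FBS replicate 1) for genotype in atRA+PKCi and 2 (without Rxra cKO atRA+PKCi replicate 2) to 5 for the interaction. In the same order, an adjusted p under 0.01 with a log2 fold change over 1 left 0, 3, 4, 2 and 2 members. The replicate block gave 11, 5, 7, 8 and 4 called members. Between the genotypes the libraries share only a number (correlations of their deviations 0.0694 in FBS and 0.00515 in atRA+PKCi). Without the filter on low counts there were 13 for genotype in FBS, 14 for genotype in atRA+PKCi and 8 for the interaction, and DESeq2 gave 5 for genotype in FBS.

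In skin, classes without thinning gave 19 called members for Mcm without Top2a and 29 for Top2a without Mcm, and cells led by basal keratins alone gave 6 for Mcm without Top2a. Mcm with Top2a against Top2a without Mcm gave 16 with no replicate block, 23 with classes from 1500 UMIs, 9 with higher class thresholds and 6 in cells led by basal keratins. Reversed were Hist1h2bc in Mcm without Top2a without thinning (0.079) and, between the Top2a classes, Hist3h2ba with higher thresholds (-0.12) and in cells led by basal keratins (-0.50), and Hist1h1c in the latter (-0.062). In culture, BMP2/4 against B-27 gave 0 without the filter, by DESeq2, with the replicate block and with a mitochondrial share under 20%. Top2a against none gave 2 without the filter, 0 by DESeq2, 0 with no replicate block, 6 with a hashtag share of 70% and 0 with a mitochondrial share under 20%. The cause of these changes was not tested. Leaving out a mouse left no test in the single-cell data, and counts of culture cells limit what could be detected.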

Other observations

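Variant histones, whose genes lie outside the clusters, were followed over the same cell classes of skin. All 10 tested were higher in Mcm with Top2a than in neither (36.8% of all genes), with a median log2 fold change of 1.25. H2afx, which is phosphorylated at DNA breaks, was 2.98 higher in Mcm with Top2a, 1.13 in Mcm without Top2a and 2.80 in Top2a without Mcm (edgeR, log2). H2afz was 2.55, 2.01 and 1.92 higher in the same order. H1f0, a linker histone known from cells that have stopped dividing, was 0.82 higher in Mcm with Top2a, 0.63 in Top2a without Mcm, and not called in Mcm without Top2a (-0.01, edgeR adjusted p = 0.958).

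Asf1b, a chaperone that hands on histones H3 and H4, was 3.95, 2.87 and 2.88 higher in Mcm with Top2a, Mcm without Top2a and Top2a without Mcm. Hjurp, the chaperone of the centromeric H3 variant, was 2.29, 0.99 and 1.92 higher. Lsm10, a subunit of the U7 snRNP, was not called in Mcm with Top2a (-0.21, edgeR adjusted p = 0.0923). In bulk, H1f0 was at 371 and 395 CPM in wild-type FBS and 227 and 228 CPM in Rxra cKO FBS, lower by 0.75 on the log2 scale.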
